A study of Caenorhabditis elegans with 2 samples.

Results

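The nuclear pore and nuclear transport genes of Caenorhabditis elegans were examined for chromatin bound by MADF-10, a worm protein named for its MADF domain, which binds DNA and resembles that of Myb. They were the protein-coding genes whose name in the WBcel235 annotation starts with npp-, imb-, ima-, xpo-, ran-, nxf- or nxt-, which gave 43 of 19985 protein-coding genes. The rule uses the gene name and no measured value, although it was set with earlier results of these data known. Their RefSeq protein names carry a pore, importin, exportin, Ran or RNA export term for most and only a domain for the rest, and roles below follow each gene's known vertebrate counterpart. For npp-27, listed as a C3HC-type domain-containing protein, no role was assigned. MADF-10 was mapped by chromatin immunoprecipitation followed by sequencing (ChIP-seq), in which sheared chromatin is pulled down with an antibody and the attached DNA is sequenced. The 2 samples were biological replicates of 1 group: whole hermaphrodites of strain OP508, genotype unc-119(tm4063) III with the transgene wgIs508, which carries MADF-10 with GFP and FLAG at its C terminus. They were young adults, collected 68 h after starved L1 larvae had been released, and the antibody was raised against GFP. The labels give neither the number of transgene copies nor the cells in which the fusion was made, and the signal is a sum over all tissues of the animal. No untagged or input library was among the samples, and the number of reads per replicate is not given, so counting error could not be set beside the values.

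Nuclear pore complexes are the channels through which proteins and RNA pass between nucleus and cytoplasm. A scaffold of outer and inner rings is anchored in the nuclear envelope by transmembrane proteins and holds a central channel of proteins rich in phenylalanine-glycine repeats, with filaments on the cytoplasmic face and a basket on the nuclear face. Importins and exportins carry proteins through the channel, the small GTPase Ran gives the transport its direction, and mRNA leaves through its own receptor. In the worm many of these genes are needed in the early embryo, where the nuclear envelope is taken apart and rebuilt at every division.

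Each gene was given the strongest region of the authors' lists with its summit, the base of highest enrichment, between 1000 bp before and 200 bp past one of its transcript starts. The sequences around some of these summits are shown first because the results turn on them. Each is a window of 101 bases centred on the summit of the pooled list, taken from the WBcel235 RefSeq genome (build ce11), and runs 5′ to 3′ on the strand of the gene. The first 3 come from promoters on the authors' reproducible list, and capitals mark the 11 bases at the summit. They are npp-3 at chrII:11874834-11874934 (minus strand), npp-8 at chrIV:1595939-1596039 (minus strand) and xpo-1 at chrV:7804366-7804466 (plus strand).
npp-3: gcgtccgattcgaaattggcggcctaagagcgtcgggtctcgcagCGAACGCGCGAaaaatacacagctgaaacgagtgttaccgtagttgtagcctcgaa
npp-8: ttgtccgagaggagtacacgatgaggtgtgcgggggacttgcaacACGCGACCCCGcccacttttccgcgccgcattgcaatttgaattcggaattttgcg
xpo-1: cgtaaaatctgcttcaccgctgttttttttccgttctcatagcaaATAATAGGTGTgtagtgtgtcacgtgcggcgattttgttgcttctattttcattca
The next 3 belong to the genes that came closest to that list without being on it. In ima-1, at chrV:11239355-11239455 (plus strand), capitals again mark the summit. In ran-5, at chrII:6047800-6047900 (plus strand), and npp-27, at chrIV:7909633-7909733 (minus strand), they mark 6-base sequences that were frequent at MADF-10 summits of other promoters.
ima-1: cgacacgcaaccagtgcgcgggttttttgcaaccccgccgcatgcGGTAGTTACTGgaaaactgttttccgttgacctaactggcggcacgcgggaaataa
ran-5: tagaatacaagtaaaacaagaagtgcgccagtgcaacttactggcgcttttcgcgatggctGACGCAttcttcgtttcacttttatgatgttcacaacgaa
npp-27: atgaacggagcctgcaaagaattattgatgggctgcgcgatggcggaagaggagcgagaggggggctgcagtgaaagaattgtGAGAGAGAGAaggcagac
The last comes from a weak region, npp-18, at chrIII:13296611-13296711 (plus strand), where capitals mark the summit.
npp-18: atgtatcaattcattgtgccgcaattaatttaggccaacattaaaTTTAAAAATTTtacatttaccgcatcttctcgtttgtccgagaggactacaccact

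Of the 43 genes, 9 had a reproducible MADF-10 peak in the promoter, which is 20.9%, against 6.38% of all protein-coding genes (1275 of 19985). These 9 were the nucleoporin genes npp-3, npp-6, npp-8, npp-12 and npp-14, the import receptor genes imb-1 and imb-3, the export receptor gene xpo-1 and the mRNA export gene nxt-1. Reproducible means here that the region was on the authors' list of 1869 peaks made from both replicates, which on ce11 holds exactly the 1869 strongest of the 30000 pooled regions. Pooled regions of any strength in the promoter, the reproducible ones included, were common as well. They were found at 34 of the 43 genes, or 79.1%, against 39.4% of all genes. Among genes with a region, the median of the authors' signal value was 64.6 for the pore and transport genes and 35.7 for all genes, and 28 of the 34 lay above the median of all genes. The design holds 1 group, so no test over samples was possible and these counts are descriptions.

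The share of promoters with a region was also followed down the pooled list. Among the strongest 1000 regions, 7 of the pore and transport genes had one (16.3%), against 3.53% of all genes. Among the strongest 3000 the shares were 37.2% and 9.78%, and among the strongest 5000 they were 60.5% for the pore and transport genes and 14.6% for all genes. Between ranks 5000 and 30000 only 8 further pore and transport genes were added, so most regions of this gene group sat in the upper part of the list.

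**Figure D1:**
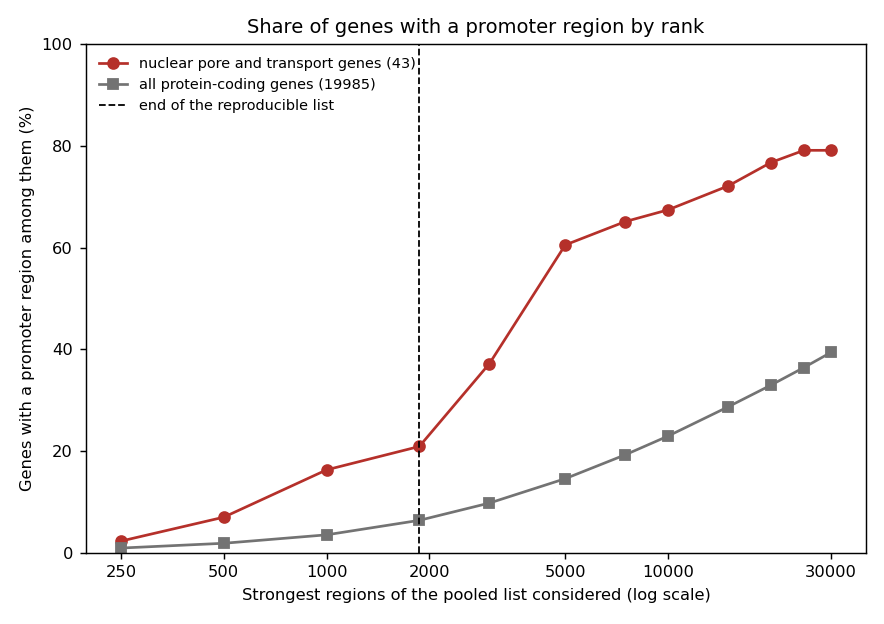
Share of genes (percent, vertical axis) with a promoter region when only the strongest pooled regions are read, by how many are read (log scale), for the 43 nuclear pore and transport genes (red circles) and all 19985 protein-coding genes (grey squares). At the end of the reproducible list (dashed line) the shares are 20.9% and 6.38%, and over the whole list they are 79.1% and 39.4%.

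The inner ring forms the inner scaffold of the pore, and 2 of its 4 genes had a reproducible peak. The highest signal of all 43 genes was at npp-3, which encodes the counterpart of vertebrate Nup205 and lies on chromosome II from 11865431 to 11874788. Its promoter region had a signal of 258 pooled, 74.8 in replicate 1 and 184 in replicate 2, at rank 233 of the pooled regions. It was among the strongest regions of both replicates, although 168 other genes had a stronger reproducible promoter peak. The gene npp-8, the counterpart of Nup155 on chromosome IV from 1567921 to 1595824, had 156 pooled, 43.0 in replicate 1 and 113 in replicate 2. The other inner ring genes were lower: npp-13, the counterpart of Nup93, had 65.7 in the pooled list and npp-19, the counterpart of Nup35, had 51.4. At npp-13 the replicates differed, with 9.4 in replicate 1 at another start of the gene and 55.5 in replicate 2.

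The outer ring, the Y-shaped complex that coats the pore membrane, had 1 gene with a reproducible peak among 8. This was npp-6, the counterpart of Nup160 on chromosome I from 5176829 to 5182801, with 189 pooled, 75.1 in replicate 1 and 111 in replicate 2. The other outer ring genes spread widely. The counterpart of Seh1, npp-18, had 61.4 in the pooled list and npp-20, the counterpart of Sec13, had 49.9. The pooled signal was 18.98 at npp-15, the counterpart of Nup133, and 16.6 at npp-2, the counterpart of Nup85. No pooled region lay in the promoter window of npp-5 (Nup107), npp-10 (Nup98 and Nup96) or npp-23 (Nup43). Inside npp-10, beyond that window, 3 pooled regions were found, the strongest at 24.2. Genes of 1 complex, whose proteins are built into the pore together, therefore ranged from a rank of 466 to no pooled region in the promoter window.

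Among the 3 transmembrane genes, npp-12, the counterpart of gp210 on chromosome I from 6447304 to 6453954, had a reproducible peak with 127 pooled, 29.5 in replicate 1 and 97.5 in replicate 2. The counterpart of TMEM33, npp-25, had 47.6 in the pooled list, and npp-22, the counterpart of NDC1, had no promoter region in any list. On the cytoplasmic face, npp-14, the counterpart of Nup214 on chromosome I from 9660174 to 9664915, had 146 pooled, 31.8 in replicate 1 and 115 in replicate 2. Both npp-12 and npp-14 were thus among the strongest regions in replicate 2 and not in replicate 1. The other genes of the cytoplasmic face were lower in the pooled list, with 48.8 at npp-9 (Nup358), 20.1 at npp-24 (Nup88) and no region at npp-26, the counterpart of Gle1. No gene of the central channel or the basket had a reproducible peak, but each of these groups holds only 3 genes. Channel genes had 55.5 at npp-1 (Nup54) and 28.9 at npp-11 (Nup62) in the pooled list and no region at npp-4 (Nup58). Basket genes had 82.5 at npp-7 (Nup153) and 50.5 at npp-16 (Nup50), with no promoter region in any list at npp-21 (TPR).

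Of the importin beta family, the receptors that carry cargo through the pore, 2 of 3 genes had a reproducible peak. The gene for importin beta itself, imb-1, lies on chromosome I from 4920683 to 4926486 and had 149 pooled, 39.6 in replicate 1 and 105 in replicate 2. The counterpart of importin-5, imb-3 on chromosome I from 310981 to 314989, had 134 pooled, 39.9 in replicate 1 and 95.4 in replicate 2. Both were among the strongest regions of both replicates, and imb-2, the transportin gene, was below the reproducible list at 74.4 pooled, 23.4 in replicate 1 and 56.0 in replicate 2. Importin alpha proteins link cargo to importin beta. None of their 3 genes had a reproducible peak: ima-1 had 90.5 pooled, 39.1 in replicate 1 and 53.3 in replicate 2, and ima-3 had 63.5 pooled, 16.8 in replicate 1 and 48.9 in replicate 2. At ima-2 a region was found in replicate 1 alone, with a signal of 30.9, and none in replicate 2 or the pooled list.

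The main export receptor, CRM1, is encoded by xpo-1 on chromosome V from 7805064 to 7814656. Its region had 119 pooled, 44.6 in replicate 1 and 84.4 in replicate 2, the lowest pooled signal of the 9 reproducible promoters. The other exportins were lower in the pooled list, with 58.0 at xpo-3, which encodes the tRNA exporter, and 28.2 at xpo-2, the CAS gene, whose product returns importin alpha to the cytoplasm. In the Ran cycle all 5 genes had a pooled region and none had a reproducible peak. The highest was ran-5, the counterpart of RanBP3, with 90.2 pooled, 22.9 in replicate 1 and 66.2 in replicate 2. Ran itself (ran-1) had 71.8 pooled, 25.1 in replicate 1 and 49.9 in replicate 2. The exchange factor RCC1 (ran-3) had 45.1, the Ran importer NTF2 (ran-4) had 43.5 and RanGAP (ran-2), which switches Ran off, had 35.2 in the pooled list.

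The mRNA export receptor is a pair of proteins, TAP and p15. The second-highest signal of all the genes was at nxt-1, the p15 gene on chromosome I from 2929777 to 2931361, with 227 pooled, 62.6 in replicate 1 and 165 in replicate 2. The TAP gene nxf-1 was lower, with 70.2 pooled, 21.7 in replicate 1 and 45.9 in replicate 2. A gene of the same family, nxf-2, had a promoter region in replicate 1 alone, at 8.7, while 2 pooled regions lay inside the gene, the strongest at 20.8. The partners of this pair of proteins therefore stood on either side of the end of the reproducible list, at ranks 319 and 2837 of the pooled list. With 3 to 8 genes in each role group, the counts by role cannot be told apart from the 20.9% of all 43 genes. Differences between roles were not tested.

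**Figure D2:**
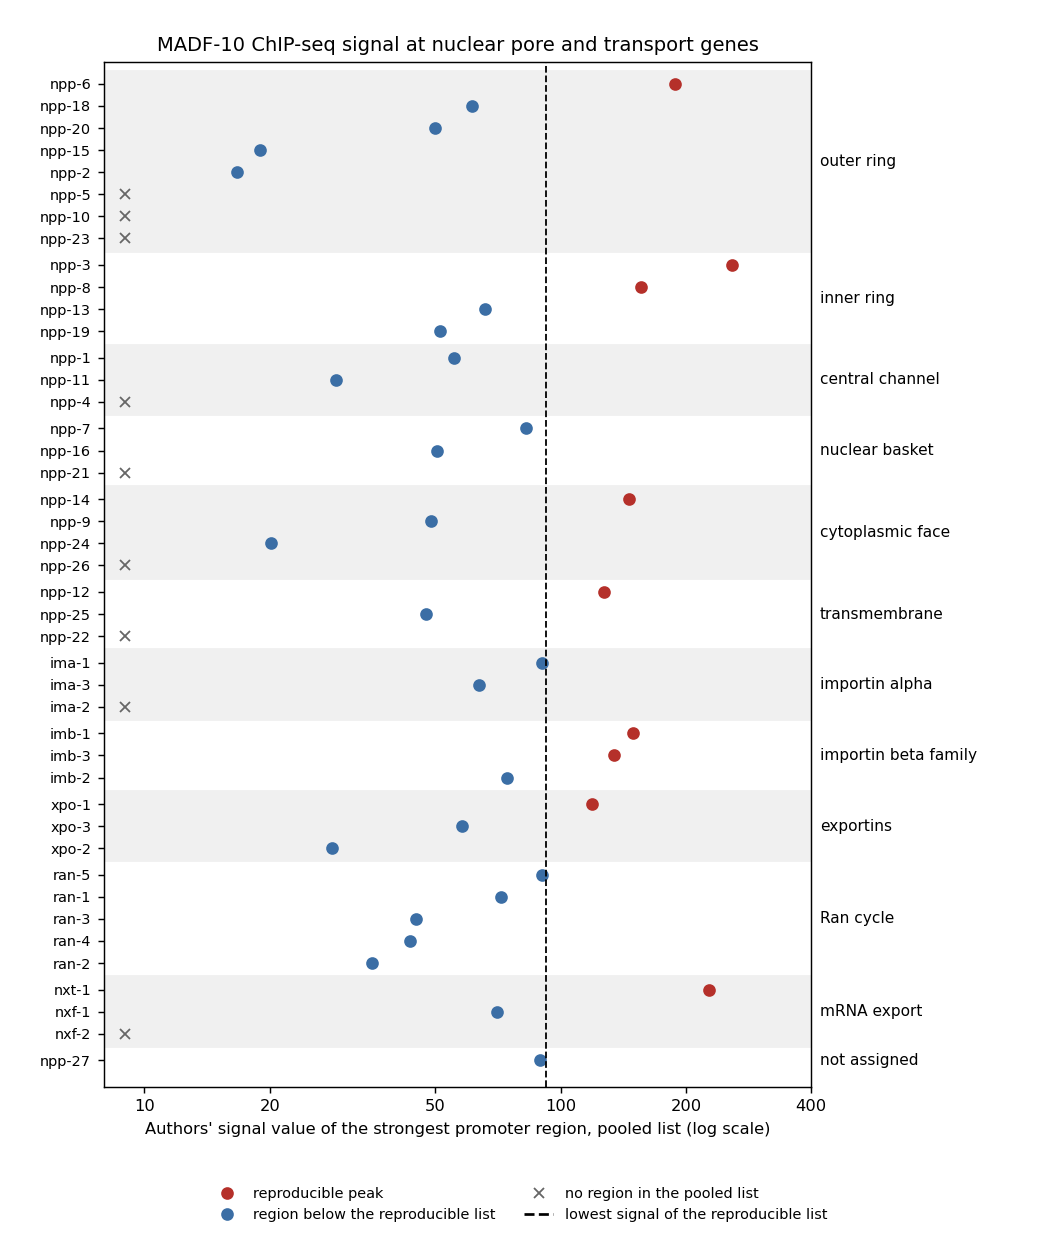
Authors' signal of the strongest promoter region in the pooled list (horizontal axis, log scale) for each of the 43 genes, grouped by role, with reproducible peaks in red, weaker regions in blue and a cross where the pooled list has no region. Reproducible peaks occur in 7 of the 11 role groups, and the dashed line is the lowest signal of the reproducible list, 92.3.

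The end of the reproducible list, at a signal of 92.3, fell in a gap between these genes. Just inside it was xpo-1 at 119, at pooled rank 1201, and just outside were ima-1 at 90.5, ran-5 at 90.2 and npp-27 at 89.0, at pooled ranks 1928, 1935 and 1973. At npp-27 the signal was 24.2 in replicate 1 and 65.0 in replicate 2. Below these followed npp-7, with 32.2 in replicate 1 and 51.6 in replicate 2, then imb-2, ran-1, nxf-1, npp-13, ima-3 and npp-18, the last with 29.1 in replicate 1 and 34.3 in replicate 2. Any boundary between ranks 1201 and 1928 of the pooled list would thus give the same 9 genes, while several genes stand close together just below it.

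Both replicates were read by the same measure, taking as many of the strongest regions of each as the reproducible list holds. In replicate 1, 8 of the 43 genes (18.6%) had one in the promoter, against 6.05% of all genes, and in replicate 2, 11 genes (25.6%) did, against 6.4% of all genes. The mean was 9.5 ± 2.12 genes (SD, n = 2), and 7 genes were among the strongest in both replicates: npp-3, nxt-1, npp-6, npp-8, imb-1, imb-3 and xpo-1. Replicate 1 alone had ima-1, and replicate 2 alone had npp-12, npp-14, npp-27 and ran-5. How many of all genes were shared by the replicates or held by 1 alone was not counted, so this overlap has no background share. Any region was found at 36 genes (83.7%) in replicate 1, against 38.2% of all genes, and at 34 genes (79.1%) in replicate 2, against 40% of all genes. For 31 genes with a region in both replicates the rank positions had a Spearman rho of 0.794, as a description across genes that share their libraries. Of these, 22 ranked higher in replicate 2 and 9 in replicate 1, with npp-13 and ran-4 the farthest apart. The same was not counted over all genes, so this lean cannot be called particular to the pore and transport genes. At npp-13 and xpo-2 the replicate 1 summit lay 1738 bp and 3800 bp from the pooled one, so the replicates there ranked different regions. The replicate lists also enter the pooled list, so the pooled values are no independent repeat of them.

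**Figure D3:**
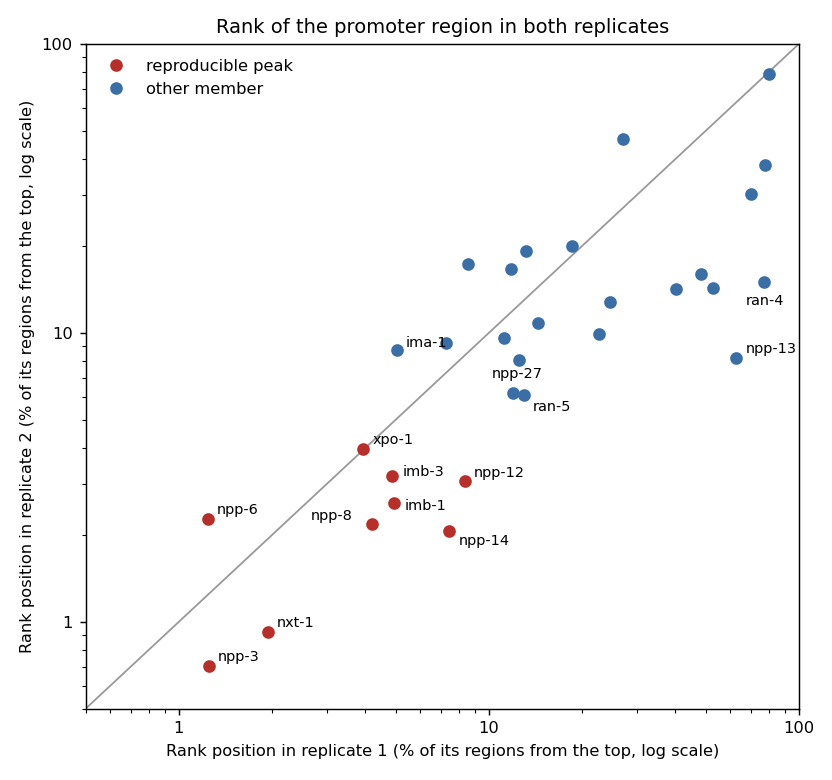
Rank position of the strongest promoter region in replicate 1 (horizontal axis) and replicate 2 (vertical axis), as a percentage of the regions of each list counted from the strongest (log scales), for the 31 genes with a region in both. The 9 genes with a reproducible peak (red) lie in the lower left. Of the 31 points, 22 lie below the line of equal rank, that is, higher in the list of replicate 2, a count not made over all genes.

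By chromosome, the reproducible peaks lay mostly on I, where 6 of 14 pore and transport genes had one, against 8.13% of all genes of that chromosome. The counts were 1 of 8 on chromosome II against 5.74%, none of 8 on chromosome III against 9.47%, 1 of 8 on chromosome IV against 5.91% and 1 of 5 on chromosome V against 4.47%. With 5 to 8 genes on each of chromosomes II to V, counts of none or 1 cannot be told apart from those shares. This includes chromosome III, whose share among all genes was the highest of these 5. None of the 43 genes lies on X, which holds 13.7% of all protein-coding genes.

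Most summits lay upstream of the starts, which the window favours, since it reaches 1000 bp before a start and only 200 bp past it. Of 34 pooled regions, 33 had the summit upstream of the nearest annotated start, against 85.1% over all genes with a pooled region. The summit lay from 50 to 500 bp upstream at 29 of the 34, a range not counted over all genes. The median distance was 280.5 bp for the pore and transport genes and 239 bp for all genes. Among the 9 reproducible promoters nxt-1 had the summit closest to its start, 74 bp upstream, followed by imb-1 at 88 bp and npp-3 at 96 bp. The farthest were npp-12 at 628 bp and xpo-1 at 648 bp, which stand in gaps of 838 bp and 855 bp to a divergent gene. The summits of the 9 were placed alike in the replicates, with a median shift from the pooled summit of 4 bp in replicate 1 and 1 bp in replicate 2. The largest shift was at xpo-1, whose summit in replicate 2 was 110 bp away from the pooled one. Only npp-24 had its summit downstream of the nearest start, by 58 bp and in an exon. That start is an internal one, and the summit was 280 bp downstream of the outermost start of npp-24. In the replicates its summit lay upstream of the nearest start, again an internal one, by 69 bp in replicate 1 and 5 bp in replicate 2. The summit of npp-27 counted as upstream of an internal start only, by 209 bp, and lay in an intron of the gene, 564 bp downstream of its outermost start.

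**Figure D4:**
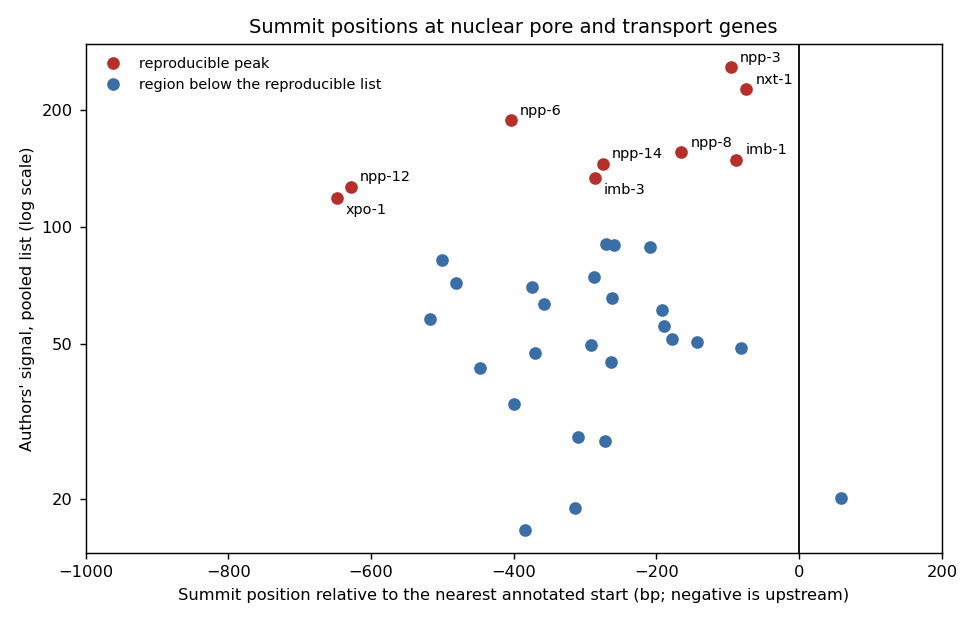
Position of the summit relative to the nearest annotated start (bp, negative is upstream) and authors' signal of the pooled region (log scale) for the 34 genes with a pooled region, with the 9 reproducible peaks in red and named. All summits but that of npp-24 lie upstream of that start, which for npp-24 and npp-27 is an internal one. The red points spread from 74 to 648 bp.

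Many of these promoters face another gene, and the peak then counts for both. Of the 9 reproducible peaks, 6 also fell in the window of a neighbour, against 48% of all genes with a reproducible promoter peak (612 of 1275), and of the 34 pooled regions 21 did, against 30.2% of all genes with one. The peak of npp-3 stood between its start and that of top-2, which encodes DNA topoisomerase II, 96 bp from npp-3 and 264 bp from top-2. The peak of imb-1 was 61 bp from the start of mfsd-13.1, of the major facilitator family of membrane transporters, and 88 bp from its own. At npp-14 the summit was closer to cel-1, the gene of the mRNA capping enzyme, at 61 bp, than to npp-14 at 275 bp. Likewise the summit was closer to the neighbour T23H2.3 (211 bp) than to npp-12, and closer to uvs-1 (208 bp) than to xpo-1. The summit of npp-6 lay in an intron of spd-5, a centrosome scaffold gene, and counted for it through an internal start 717 bp away. The outer start of spd-5 was 229 bp from that summit, closer than the start of npp-6 at 404 bp, but the summit lay past the 200 bp that the window extends downstream of it. At npp-8, nxt-1 and imb-3 the peak counted for no other gene. When each peak was given only to the nearest start whose window held it, npp-3, npp-6, npp-8, nxt-1 and imb-3 remained, 5 genes against 967 of all genes, with npp-6 kept only because of that downstream limit. A peak between divergent starts cannot be assigned to either gene from these lists.

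**Figure D5:**
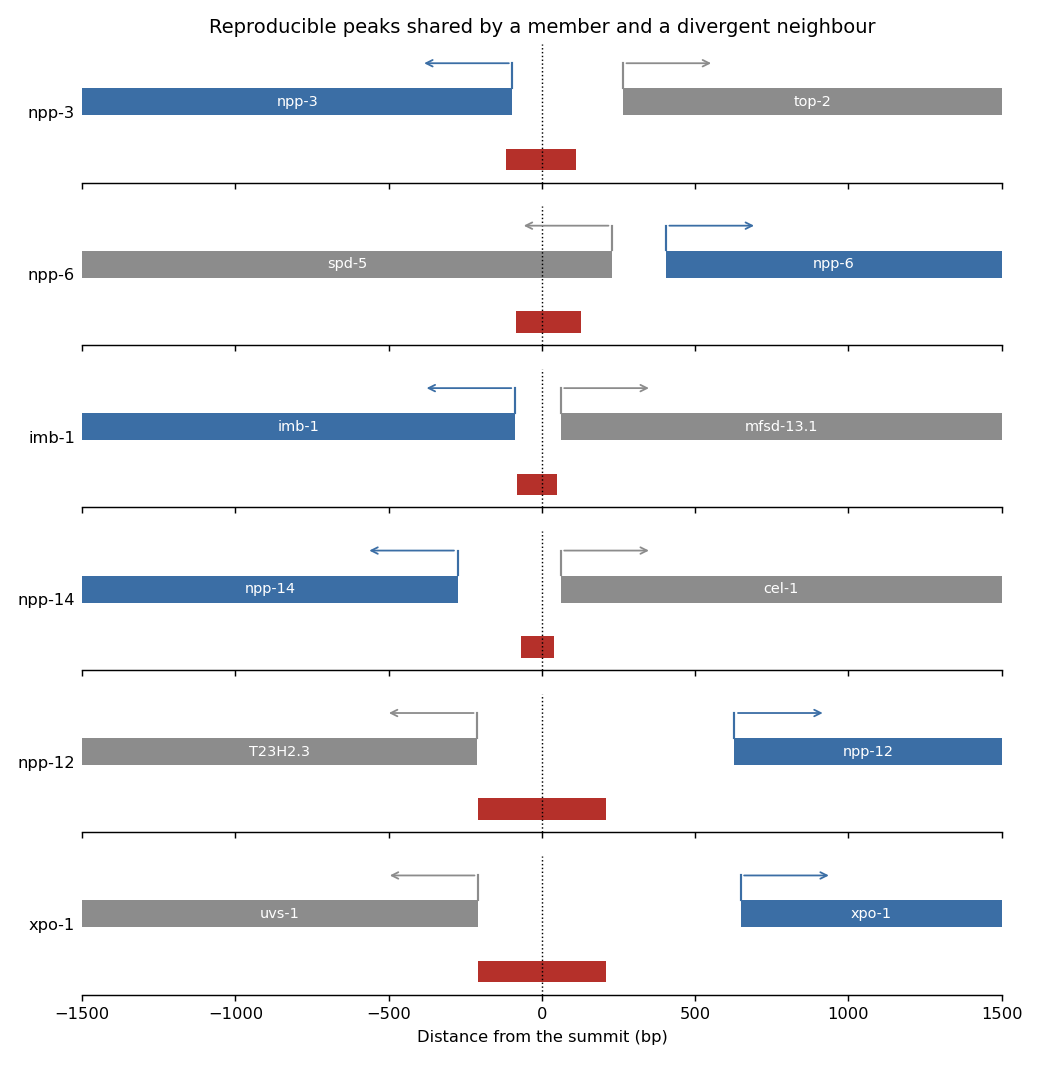
Map of the 6 reproducible peaks that also count for a neighbour, aligned at the summit (dotted line, distance in bp), with the pore or transport gene in blue, the neighbour in grey, arrows at their annotated outer starts and the peak region in red. In 5 of the maps the summit lies between divergent starts, and at npp-6 it lies inside spd-5.

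The gene arrangement itself differed from the genome at large. A divergent neighbour upstream was found at 31 of the 43 genes (72.1%), against 45.4% of all protein-coding genes, and the median distance to the upstream gene was 524 bp, against 1156 bp. Genes with a divergent neighbour had reproducible peaks more often in the whole annotation, 8.85% against 4.24% of genes with an upstream neighbour on the same strand. Within the divergent arrangement 22.6% of the pore and transport genes (7 of 31) had a reproducible peak, against 8.85% of all such genes, and within the same-strand arrangement 16.7% (2 of 12), against 4.24%. The share was higher for these genes in both arrangements, the second of which holds 12 of them. The distance to the upstream gene was not matched, and a part of the arrangement in the difference was not tested. Transfer RNA genes were not near these summits: the closest was 14952 bp away, and for the reproducible peaks 59353 bp. Over all genes, 74 of 1015 reproducible promoter peaks had a tRNA gene within 200 bp. With 9 peaks, a count of none cannot be told apart from that share.

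No pooled region lay in the promoter window of 9 genes, and 5 of these had one in a single replicate. These were ima-2 in replicate 1 at rank 2034, npp-23 in replicate 1 at rank 15278 and nxf-2 in replicate 1 at rank 18402, and npp-4 in replicate 2 at rank 17182 and npp-10 in replicate 2 at rank 21001. Apart from ima-2, which in replicate 1 stood near genes such as npp-7, these were low in their list. The remaining npp-5, npp-21, npp-22 and npp-26 had no region in the window in any of the 3 lists. Pooled regions lay inside 2 of the 9 genes but outside the window, at npp-10 (strongest 24.2) and nxf-2 (strongest 20.8). A reproducible peak outside the window was nearest at ima-2, 2671 bp from its start and beyond the end of the gene, with a signal of 254. Absence from a list means that the authors' caller kept no region there, and the depth behind it is not given. Of these 9 genes, 3 had a same-strand gene within 500 bp upstream (npp-22 at 67 bp, npp-26 at 99 bp and npp-23 at 282 bp). Such a neighbour stood at 3 of the 34 genes with a pooled region. Over all genes the share was 18.1%, and over all genes with a pooled region 22.8%. Whether a start outside the window serves these genes was not tested.

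The sequences at the summits were compared with those frequent at MADF-10 summits elsewhere. Among 932 reproducible promoter peaks of other genes with no tRNA gene within 200 bp, the 5 sequences of 6 bases with the greatest excess over flanks 300 bp away were read on both strands. They were GAGAGA and, shifted by 1 base, the related AGAGAG, then GACGCA, which overlaps ACGCAG in longer stretches, and finally CGTCTC, whose other strand can overlap GACGCA. The most frequent, GAGAGA, was within 50 bp of 24.1% of those summits and of 6.6% of flank windows, and GACGCA was at 18.03% of summits and 1.88% of flanks. Any of the 5 was found at 1 of the 9 reproducible pore and transport promoters (11.1%), against 49.0% of the 932 (457 promoters). The 5 were chosen for their excess at these same 932 summits, so the 49.0% is raised by that choice. That promoter was imb-3, with GACGCA and ACGCAG. Neither npp-3 nor npp-8, printed above, holds any of them, although both rank high among these genes. Over all 34 pooled regions the share was 23.5% (8 regions), against 26.2% of 6624 pooled promoter regions of other genes, and the 8 include ran-5 and npp-27 shown above. A match describes the letters in the window and is not a binding site.

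GC content was read in the same windows. The windows at the 9 reproducible summits had a median GC content of 47.5%, with 37.6% in their flanks, and those of the other 932 had 48.5%, with 34.7% in their flanks. The highest was npp-8 at 56.4% and the lowest nxt-1 at 35.6%, so the second-strongest promoter of the group had the lowest GC content of the 9.

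Other genes of the nuclear envelope, the SUMO pathway and mRNA export were read in the same way from a list of 40 names, of which 36 matched the annotation. Of these, 6 had a reproducible promoter peak (16.7%) and 27 any pooled region (75%), against 6.38% and 39.4% of all genes. The highest were thoc-7, of the THO complex that packages mRNA for export, with 399 pooled, 106 in replicate 1 and 295 in replicate 2, and ubc-9, the SUMO conjugating enzyme, with 314 pooled, 96.6 in replicate 1 and 216 in replicate 2. Both exceeded npp-3 in each list. The inner nuclear membrane gene lem-2 had 169 in the pooled list, the mRNA export helicase gene hel-1 had 154, thoc-5 had 116 and uba-2, of the SUMO activating enzyme, had 108. The lamin gene lmn-1 was lower at 53.8 in the pooled list, with no promoter region in replicate 1, and the membrane protein genes sun-1 and unc-84 had no pooled region in the promoter window. The median pooled signal of the listed genes with a region was 53.6, against 64.6 for the pore and transport genes and 35.7 for all genes.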

How the data were processed

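MADF-10 ChIP-seq of 2 biological replicates was analysed from region lists in narrowPeak format. Each replicate's list was made from its alignments and a control, the pooled list from both replicates, and the reproducible list by an irreproducible discovery rate threshold, per the deposited readme files. Not given in the sources used here are the aligner, the peak caller, its settings, that threshold and the depth per sample, and the control data were not analysed here. The deposited signal value of each region is the authors' own and was used only to describe and rank regions within a list. The ce11 lists hold 25924 regions in replicate 1, 30000 in replicate 2, 30000 pooled and 1869 reproducible. Lists on ce10 were only counted (2878 reproducible peaks).

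A summit counted for every protein-coding gene (WBcel235, Ensembl release 115) with a window, 1000 bp before to 200 bp past a transcript start, that held it, so a peak can count for several genes. No test was run, since 1 group of 2 replicates allows none. Each 6-base sequence was counted at most once in a window, on both strands. The scripts were tested on simulated data and used Python 3.11.15, pandas 2.3.3 and numpy 2.4.6. The text names every gene of the group with a reproducible peak, the 10 highest without one, every gene with no pooled region, and neighbours that share a reproducible peak, and further genes by role. The genes, the roles and the list of other genes were chosen with earlier results of these data known. Alternatives concerned the window, the transcript starts, the threshold, the replicates and the sequence window.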

Additional observations from a re-analysis of the deposited data

How the results depend on the processing

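Recomputing 6 results under 10 other settings, where each applied, gave 42 values, of which 33 stayed within 1.5 times the reported count or, for the median rank position, within 1 SD of the replicates. The count of 9 reproducible promoters became 16 with as many of the strongest pooled regions as the ce10 list holds (2878), where the count over all genes was 1901 in place of 1275, 9 remained and ima-1, imb-2, npp-27, npp-7, nxf-1, ran-1 and ran-5 were added, and 5 with the nearest start only (967 over all genes). It was 8 to 11 from a single replicate: with replicate 1 left out npp-27 and ran-5 were added, and with replicate 2 left out npp-12 and npp-14 were lost and ima-1 added. The 34 genes with any pooled region became 22 with the nearest start only, and 34 to 36 from a single replicate. The count over all genes was not recomputed for the nearest start, so the 22 cannot be set beside the 39.4% of all genes. Shared peaks, 6 as reported, became 12 with the ce10 number, 3 in a window of 500 bp upstream to 100 bp downstream, and 5 to 8 from a single replicate. How many of all genes shared a peak was not recomputed in these settings. The median rank position, 10.6% of the pooled list, became 13.2% in the narrower window and 10.4% to 13.1% from a single replicate. The most frequent 6-base sequence, found at 0 of the 9 summits, was found at 1 within 100 bp of a summit and at 0 or 1 from a single replicate. In these settings fewer or more regions, starts or bases were read by construction. No paired analysis was possible because the design holds 1 group. The depth behind each list is not given, so the least signal that could have been detected is not known here.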

Other observations

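After the sequences had been read, a shared stretch was seen in the windows of npp-8, an inner ring gene with a reproducible peak, and npp-18, an outer ring gene below that list. The longest stretch common to both windows, with 1 mismatch written as N, was TTGTCCGAGAGGANTACAC, 19 letters on the strand of each gene. It begins at the edge of the npp-8 window, and a longer match beyond that edge was not looked for. It lay within 50 bp of the summit at 2 of the 34 pooled regions of the pore and transport genes (5.88%), against 21 of 10641 pooled promoter regions (0.2%) and 9 of 1015 reproducible promoter peaks (0.89%). In the WBcel235 genome it occurred at 85 places on either strand, of which 34 lay inside a pooled region. The part of the genome that pooled regions cover was not computed, so the 34 have no background share. The pair was chosen for this likeness, so its own share supports nothing, and a match of letters is not a binding site.

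Both genes with the stretch differed in signal, with 156 at npp-8 and 61.4 at npp-18 in the pooled list. Where the 2 replicates disagreed most among named genes, a single list carried the region: ima-2 had a signal of 30.9 in replicate 1, which is rank 2034 of 25924, and no region in replicate 2.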
